A study of Homo sapiens with 12 samples.

Results

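A group of 10 genes, AXIN2, RNF43, ZNRF3, NKD1, LEF1, TCF7, TCF7L2, DKK1, MYC and LGR4, all targets or feedback regulators of the Wnt/β-catenin pathway, was followed across 4 stable lines of HCT116, a human colorectal cancer cell line in which β-catenin is mutated. They were the 10 rows with these symbols among the 28395 genes of the count table. All 10 were among the 15853 genes that reached 0.5 CPM (counts scaled to library size) in at least 3 libraries, but LEF1 reached that level in 1 line only.

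HCT116-EV cells carried the empty pcDNA3.1 vector, HCT116-EHF cells an expression plasmid for EHF, an epithelial transcription factor of the ETS family, and both were selected with G418. HCT116-CDX1 cells carried CDX1, a caudal homeobox factor of the intestine, on an MSCV-IRES-GFP retrovirus and were sorted for GFP. HCT116-EHF+CDX1 cells were G418-resistant clones of HCT116-CDX1 cells transfected with EHF, so G418 selection was absent from the HCT116-CDX1 line only, and the sort on GFP was absent from HCT116-EV and HCT116-EHF cells. RNA-seq was performed on 3 libraries per line, 12 in all. Each condition was therefore 1 engineered line, and differences made by a transgene, by the choice of clones or by selection cannot be told apart. The labels do not say that the libraries of a line came from separate cultures. A legend of the study speaks of biological replicates for its RNA-seq clustering, but of fewer than the 3 libraries per line used here. The p-values therefore measure the spread between these libraries, which may be in part technical. RNA was measured in bulk, so fewer cells expressing a gene and less RNA per cell cannot be told apart.

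In the canonical Wnt pathway, ligand binding to Frizzled and LRP receptors stops a complex built on axin and APC from degrading β-catenin, which then enters the nucleus and activates transcription with the TCF/LEF factors. Several of the genes switched on in this way act back on the pathway. In the colon the pathway maintains the stem cells of the crypt base, and most colorectal cancers carry a mutation that keeps it active.

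Total counts ranged from 13523007 to 74186741 per library, and a count of 3, the upper limit that a count of 0 allows, corresponded to between 0.0375 and 0.207 CPM (counting error only). EHF, the gene carried by the plasmid, lay between 237 and 335 CPM in HCT116-EV and between 11.9 and 13 CPM in the CDX1 line, and at 17115 CPM or more in each library of the lines given EHF. CDX1 lay between 487 and 559 CPM in the line with CDX1 alone, between 5108 and 5639 CPM in the combined line, and at or below 0.05 CPM elsewhere, so the combined line held far more CDX1 transcript than the line with CDX1 alone. The labelled epithelial origin was met by all 5 epithelial markers examined (EPCAM, KRT8, KRT18, KRT19, CDH1). Their summed level was 2361 to 2859 CPM in HCT116-CDX1 and 4176 to 5440 CPM elsewhere. PTPRC, CD3E, DCN and CDH5, which define immune cells, T cells, fibroblasts and endothelium, stayed at or below 0.213 CPM, while the summed fibroblast markers, nearly all COL1A1, were 167 to 219 CPM in HCT116-CDX1 and 33.5 to 75.3 CPM elsewhere. The 3 immune markers, nearly all CD79A there, summed to 1.91 to 2.22 CPM in HCT116-CDX1 and 0.0947 to 0.829 CPM elsewhere, and the 3 endothelial markers to at most 1.87 CPM. The part of these shifts in the results on HCT116-CDX1 was not tested.

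One library stood apart. Replicate 3 of HCT116-EV differed from replicates 1 and 2 by a chi-square of 323 and 294 per degree of freedom over genes, against 4.18 between replicates 1 and 2. It was also deeper, at 55958129 counts against 21234954 and 19305351. As root mean square differences of log2 CPM these distances were 0.90 and 0.88, against 0.42. Between HCT116-CDX1 libraries the chi-square was 19.6 to 47.2. Among the 10 genes, AXIN2 was 4.30-fold lower, TCF7 2.01-fold lower and DKK1 2.69-fold higher in HCT116-EV replicate 3 than in the mean of the other 2, and the others of the 10 with reads moved by 1.24-fold or less. The log2 changes of the 10 genes over HCT116-EV are therefore given with all libraries and without replicate 3.

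RNF43 and ZNRF3 encode transmembrane ubiquitin ligases that remove Frizzled receptors from the cell surface, and LGR4 encodes a receptor for R-spondins, which counteract both ligases. RNF43 was raised in the lines that carried EHF. It is located at chr17:58352500-58417534 (GRCh38.p14, as are all positions given). Its levels were 55.9, 54.9 and 45.2 CPM in HCT116-EV cells, 143, 135 and 131 CPM with EHF only, 29.8, 28.6 and 30.9 CPM with CDX1 only and 139, 129.8 and 128 CPM with both factors. The libraries of both EHF lines overlapped each other and lay above all the others, and those of HCT116-CDX1 lay below all the others. Compared with HCT116-EV, RNF43 rose 2.63-fold in HCT116-EHF (log2 fold change 1.39 ± 0.095 SE, adjusted p = 9.4e-07) and 2.54-fold in HCT116-EHF+CDX1 (adjusted p = 9.9e-07), and fell 1.74-fold in HCT116-CDX1 (adjusted p = 1.1e-05). Without HCT116-EV replicate 3 these log2 changes were 1.30, 1.25 and -0.90.

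ZNRF3 (chr22:28883572-29057488), the closest relative of RNF43, did not follow it. Its levels were 48.9, 52.6 and 63 CPM with the empty vector, 34.4, 33.5 and 32.6 CPM in the EHF line, 25.9, 23.6 and 24.4 CPM in the CDX1 line and 36.1, 32.7 and 40.2 CPM in the combined line. HCT116-EV was the highest line and HCT116-CDX1 the lowest, neither overlapping its neighbour, while HCT116-EHF and HCT116-EHF+CDX1 overlapped. ZNRF3 fell in all 3 lines relative to HCT116-EV, by 1.64-fold in HCT116-EHF (adjusted p = 0.00049), 2.23-fold in HCT116-CDX1 (adjusted p = 2.0e-06) and 1.51-fold in HCT116-EHF+CDX1 (adjusted p = 0.0014). The first and last of these did not pass the test against a 1.5-fold change (adjusted p = 0.30 and 0.809), and without HCT116-EV replicate 3 the 3 log2 changes were -0.60, -1.04 and -0.49.

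LGR4 (chr11:27365961-27472790) was low in HCT116-CDX1 cells. It was measured at 10.3, 9.99 and 9.28 CPM in HCT116-EV, against 13.2, 11 and 10.2 CPM where EHF had been added, 4.51, 4.50 and 3.58 CPM where CDX1 had been added and 13.2, 13.4 and 14 CPM where both had. No HCT116-CDX1 library came near any other, and HCT116-EHF overlapped HCT116-EV. The fall in HCT116-CDX1 was 2.34-fold (log2 -1.23 ± 0.14 SE, adjusted p = 7.2e-06, and -1.27 without HCT116-EV replicate 3). In HCT116-EHF+CDX1 cells LGR4 was 1.38-fold higher than in HCT116-EV (adjusted p = 0.019), a call that was lost when HCT116-EHF+CDX1 replicate 3 was left out (adjusted p = 0.060), and the change in HCT116-EHF did not pass the test (log2 0.22, 95% interval -0.07 to 0.51, adjusted p = 0.25).

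**Figure D1:**
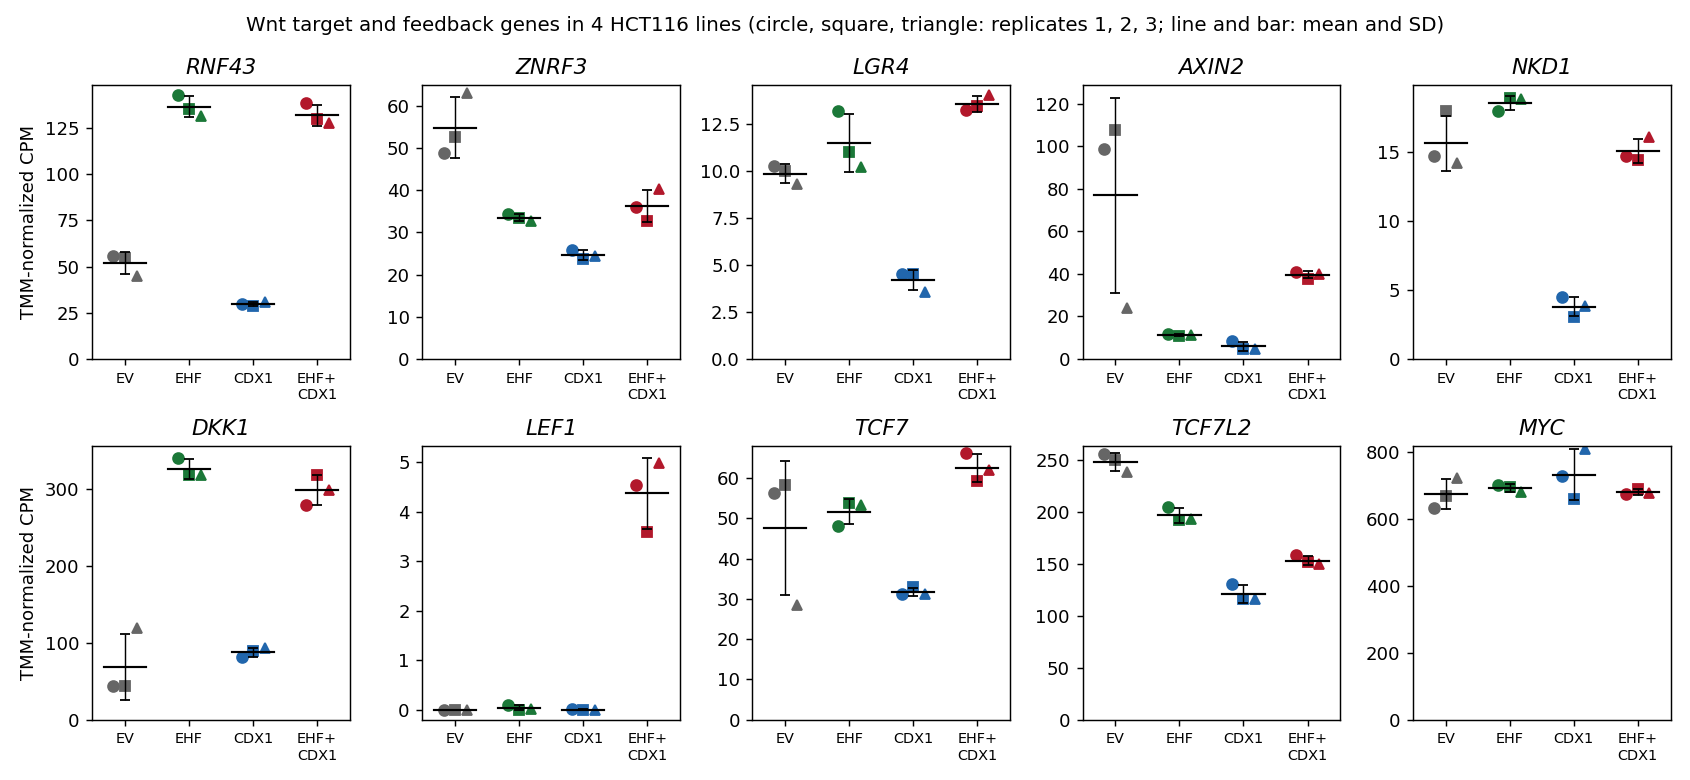
TMM-normalized CPM (vertical axes, linear from 0) of the 10 genes in each library of the 4 lines, with replicates 1, 2 and 3 as a circle, a square and a triangle and the mean and SD as a line and bar. RNF43 and DKK1 were high in both lines with EHF, AXIN2 and NKD1 were lowest in HCT116-CDX1 (means 5.93 and 3.79 CPM), LEF1 rose from the base line in HCT116-EHF+CDX1 alone, and HCT116-EV replicate 3 lay apart for AXIN2, DKK1 and TCF7.

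AXIN2 (chr17:65528563-65561648) encodes a scaffold of the β-catenin destruction complex and is a commonly used readout of the pathway. It had the widest range of the genes with reads in every line. Its levels were 98.8, 108 and 24.0 CPM in HCT116-EV cells, 11.8, 11 and 11.2 CPM with EHF only, 8.32, 4.6 and 4.86 CPM with CDX1 only and 40.9, 37.9 and 40.2 CPM with both factors. HCT116-EV replicate 3 lay below the HCT116-EHF+CDX1 libraries and the other HCT116-EV libraries above them, while the 3 other lines did not overlap one another. Compared with HCT116-EV, AXIN2 fell 6.77-fold in HCT116-EHF (log2 -2.76 ± 0.44 SE, adjusted p = 0.00062) and 12.9-fold in HCT116-CDX1 (log2 -3.69 ± 0.46 SE, adjusted p = 1.8e-05). Without HCT116-EV replicate 3 the log2 changes were -3.19 and -4.11.

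The cells with both factors held more AXIN2 than those with either factor alone. The level in HCT116-EHF+CDX1 was 6.66-fold that in HCT116-CDX1 (adjusted p = 0.00017) and 3.50-fold that in HCT116-EHF (adjusted p = 0.019). The second call was lost (adjusted p = 0.056 to 0.082) when any 1 library of HCT116-EHF or HCT116-EHF+CDX1 was left out, and the adjusted p was 9.7e-09 without HCT116-EV replicate 3, although that library is in neither line (the cause was not tested). Against HCT116-EV itself the combined line did not pass the test with all libraries (log2 -0.95, 95% interval -1.85 to -0.05, adjusted p = 0.098). It did pass without HCT116-EV replicate 3 (log2 -1.38 ± 0.13 SE, adjusted p = 1.0e-07).

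NKD1 (chr16:50548396-50649249) encodes a Dishevelled-binding antagonist that is itself induced by Wnt signalling. It lay at 14.7, 17.9 and 14.2 CPM with the empty vector, 18.0, 18.9 and 18.8 CPM in the EHF line, 4.47, 3.08 and 3.83 CPM in the CDX1 line and 14.7, 14.4 and 16.1 CPM in the combined line. Only the HCT116-CDX1 libraries were far from the rest, and HCT116-EV overlapped HCT116-EHF+CDX1. NKD1 fell 4.10-fold in HCT116-CDX1 relative to HCT116-EV (log2 -2.04 ± 0.15 SE, adjusted p = 1.9e-07, and -2.10 without HCT116-EV replicate 3). Its changes in HCT116-EHF (log2 0.25, 95% interval -0.05 to 0.55) and HCT116-EHF+CDX1 (log2 -0.05, 95% interval -0.36 to 0.25) did not pass the test.

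DKK1 (chr10:52314281-52317657) encodes a secreted inhibitor that binds the LRP5 and LRP6 co-receptors. Together with RNF43 it was one of 2 genes of the 10 that rose in HCT116-EHF cells. Its levels were 44.1, 44.3 and 119 CPM in HCT116-EV, against 341, 319.5 and 318 CPM where EHF had been added, 82.0, 89.1 and 93.3 CPM where CDX1 had been added and 279, 318.5 and 299 CPM where both had. Both lines with EHF lay above every library without it and overlapped each other, and HCT116-EV replicate 3 exceeded all HCT116-CDX1 libraries. DKK1 rose 4.70-fold in HCT116-EHF (log2 2.23 ± 0.31 SE, adjusted p = 0.00024) and 4.31-fold in HCT116-EHF+CDX1 (log2 2.11 ± 0.31 SE, adjusted p = 0.00031), and without HCT116-EV replicate 3 these log2 changes were 2.88 and 2.76. In HCT116-CDX1 the change did not pass the test with all libraries (log2 0.34, 95% interval -0.31 to 1.0, adjusted p = 0.32) and was a rise of 0.99 (adjusted p = 3.7e-10) without that library.

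The TCF/LEF family binds DNA and recruits β-catenin to Wnt targets. LEF1 (chr4:108047548-108168932), which is also a target of the pathway, was found in the combined line. It had 0 reads in each HCT116-EV library, 2, 0 and 2 reads in HCT116-EHF, 1, 0 and 0 reads in HCT116-CDX1, and 260, 189 and 72 reads in HCT116-EHF+CDX1. In CPM the last were 4.54, 3.59 and 4.98, and no library of another line exceeded 0.106 CPM, so the combined line did not overlap any other. Over the limit of 3 counts per library, LEF1 was at least 40.2-fold higher in the combined line than in HCT116-EV. The ratio was 153 to the 4 reads of HCT116-EHF (95% counting interval 59.5 to 565) and 520 to the 1 read of HCT116-CDX1 (95% counting interval 92.9 to 20566). LEF1 entered the tested genes through the combined line only, so its test values there are not given. The antisense row LEF1-AS1 held at most 7 reads in any library.

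TCF7 (chr5:134108218-134148210) encodes TCF1 and TCF7L2 (chr10:112950247-113167678) encodes TCF4, the main partner of β-catenin in intestinal epithelium. TCF7 levels were 56.2, 58.1 and 28.5 CPM in HCT116-EV cells, 48.0, 53.7 and 53.3 CPM with EHF only, 31.1, 32.8 and 31.1 CPM with CDX1 only and 66.1, 59.2 and 61.9 CPM with both factors. The HCT116-EHF+CDX1 libraries were the highest and overlapped no other line, whereas HCT116-EV overlapped HCT116-EHF and, through replicate 3, HCT116-CDX1. Between the combined line and the CDX1 line the difference in TCF7 was 1.97-fold (log2 0.98 ± 0.20 SE, adjusted p = 0.0012). It fell 1.5-fold in HCT116-CDX1 relative to HCT116-EV (adjusted p = 0.024), which became a log2 change of -0.85 without HCT116-EV replicate 3 and lost its call when HCT116-EV replicate 1 or 2 or HCT116-CDX1 replicate 1 or 3 was left out (adjusted p = 0.062 to 0.10) as well as with quantile normalization in limma (adjusted p = 0.062), with limma on the deposited log2 RPKM values (adjusted p = 0.056) and with only the libraries compared (adjusted p = 0.073). Neither HCT116-EHF (log2 0.12, 95% interval -0.32 to 0.57) nor HCT116-EHF+CDX1 (log2 0.40, 95% interval -0.05 to 0.84) passed the test against HCT116-EV, and the first turned to -0.14 without replicate 3.

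TCF7L2 fell in each of the 3 lines. It was at 255.5, 249.8 and 239 CPM with the empty vector, 204, 192 and 193 CPM in the EHF line, 131, 116 and 117 CPM in the CDX1 line and 158, 151.5 and 150.1 CPM in the combined line. No line overlapped another, and the order from high to low was HCT116-EV, HCT116-EHF, HCT116-EHF+CDX1 and HCT116-CDX1. The falls relative to HCT116-EV were 1.26-fold in HCT116-EHF (adjusted p = 0.0081), 2.05-fold in HCT116-CDX1 (adjusted p = 3.8e-07) and 1.62-fold in HCT116-EHF+CDX1 (adjusted p = 5.1e-05). Only the fall in HCT116-CDX1 passed the test against a 1.5-fold change, and without HCT116-EV replicate 3 the log2 changes were -0.36, -1.06 and -0.72. With only the HCT116-EV and HCT116-EHF libraries in the fit, the fall in HCT116-EHF lost its call (adjusted p = 0.067).

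The deposited log2 RPKM values, which are scaled to exon length, allow the family members to be compared with each other. On that scale TCF7L2 had the highest level in every library, between 4.2 and 5.61, and TCF7 lay between 1.31 and 2.56. TCF7L1, the fourth gene of the family, was between 2.80 and 3.38 and so above TCF7 in each library. LEF1 reached -0.38 to 0.10 in HCT116-EHF+CDX1 and lay at or below -5.50 elsewhere, where its values come from 0 to 2 reads. TCF7L1 passed the test in none of the 5 comparisons between lines (log2 changes -0.30 to 0.01, adjusted p = 0.052 to 0.95), but without HCT116-EV replicate 3 it was lower in the combined line than in HCT116-EV (log2 -0.38, adjusted p = 0.0011), HCT116-EHF (log2 -0.28, adjusted p = 0.0062) and HCT116-CDX1 (log2 -0.25, adjusted p = 0.0054). CTNNB1, which encodes β-catenin, was at 276 ± 74.5 CPM in HCT116-EV, against 268 ± 4.84 CPM where EHF had been added, 365 ± 32.3 CPM where CDX1 had been added and 231 ± 7.25 CPM where both had (SD, n = 3). It was higher in HCT116-CDX1 than in HCT116-EV (log2 0.40, adjusted p = 0.044) and than in HCT116-EHF+CDX1. Without HCT116-EV replicate 3 its log2 changes over HCT116-EV were -0.25 with EHF, 0.19 with CDX1 and -0.47 with both, each past the test (adjusted p = 0.0034, 0.011 and 7.6e-06). On the deposited log2 RPKM values CTNNB1 was at 6.38, 6.29 and 5.59 in HCT116-EV and 6.24, 6.07 and 6.17 in HCT116-CDX1. There HCT116-CDX1 lay within the range of HCT116-EV and below its replicates 1 and 2, so the rise depended on scaling.

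**Figure D2:**
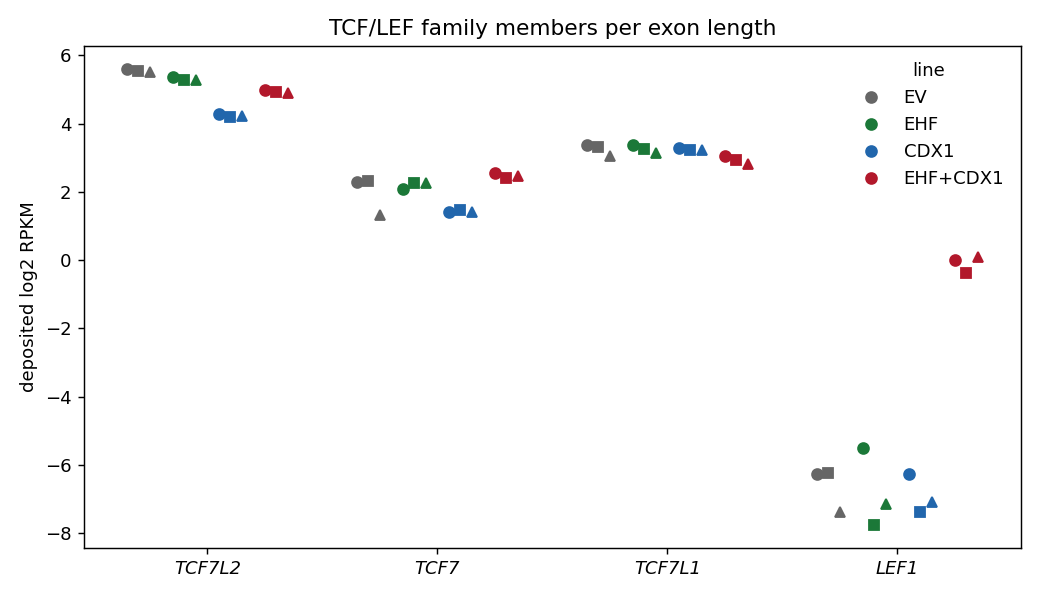
Deposited log2 RPKM values (vertical axis) of the 4 TCF/LEF genes in each of the 12 libraries, coloured by line, with replicates 1, 2 and 3 as a circle, a square and a triangle. TCF7L2 was the highest of the 4 in every library, and LEF1 lay at -0.38 to 0.10 in HCT116-EHF+CDX1, below TCF7 there but far above its values in the other lines.

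MYC, on chromosome 8, encodes a transcription factor that drives growth and is a classical Wnt target in colorectal cancer. It had the highest level of the 10 genes per exon length, between 7.76 and 8.47 log2 RPKM, and passed the test in no comparison. Its levels were 631, 667 and 720.3 CPM in HCT116-EV cells, 699.6, 696 and 678 CPM with EHF only, 728, 658.5 and 809 CPM with CDX1 only and 672, 688 and 678 CPM with both factors. All lines overlapped. The 95% intervals of the log2 change from HCT116-EV were -0.17 to 0.25 in HCT116-EHF, -0.09 to 0.33 in HCT116-CDX1 and -0.19 to 0.22 in HCT116-EHF+CDX1. This result depended on scaling in HCT116-CDX1 cells. With quantile normalization in limma MYC was lower there than in HCT116-EV (log2 -0.28, adjusted p = 0.020) and lower there than in the combined line (log2 0.53 for the latter over the former, adjusted p = 0.00041), and without HCT116-EV replicate 3 the edgeR test gave a rise of 0.17 over HCT116-EV (adjusted p = 0.025).

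Counted over the 10 genes, 2 rose and 3 fell in HCT116-EHF relative to HCT116-EV, where the same test called 30.1% of all tested genes (14.9% higher and 15.1% lower). RNF43 and DKK1 rose and AXIN2, ZNRF3 and TCF7L2 fell. In HCT116-CDX1, 7 genes fell, with 68.9% of all genes called (35.1% lower), so that the share of the 10 genes called was close to that of all genes. The 7 were RNF43, ZNRF3, LGR4, AXIN2, NKD1, TCF7 and TCF7L2. In HCT116-EHF+CDX1, 3 rose (RNF43, LGR4, DKK1) and 2 fell (ZNRF3, TCF7L2), beside LEF1, which was called higher but was tested only because of its level in that line, with 33.6% of all genes called (16.9% higher and 16.7% lower). These 3 comparisons share the HCT116-EV libraries. Against a 1.5-fold change 3, 6 and 3 of the 10 genes passed (LEF1 among the last), with 8.33%, 44.6% and 10.4% of all genes called. When HCT116-EV replicate 3 was left out, 5, 9 and 7 of the 10 were called against no change (LEF1 among the 7), with 52.5%, 78.8% and 54.9% of all genes.

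**Figure D3:**
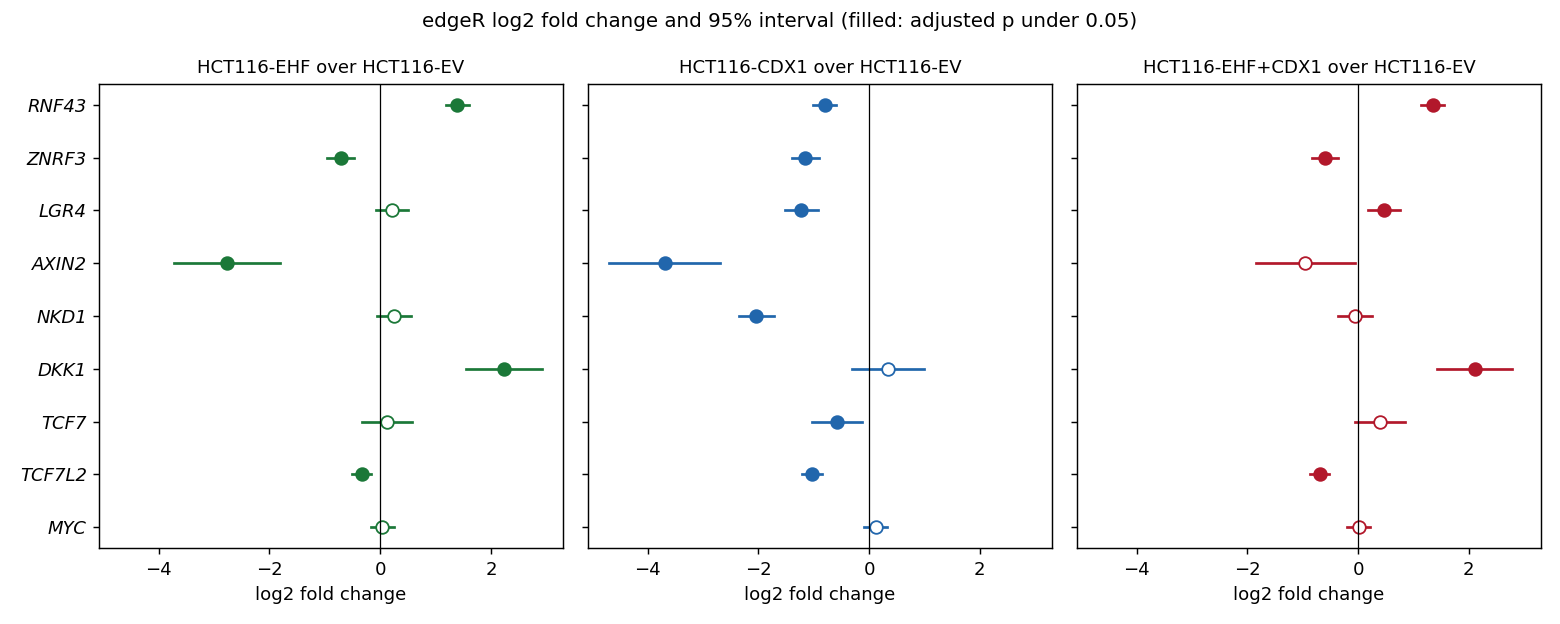
Log2 fold changes over HCT116-EV (horizontal axis) with 95% intervals from edgeR for 9 of the genes, with a panel for each of the other lines, filled where the adjusted p is under 0.05. LEF1 is left out because HCT116-EV held 0 reads, and 7 of the 9 points for HCT116-CDX1 are filled and lie below 0. In that comparison 68.9% of all genes were called (35.1% lower).

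Direct comparison of the combined line with the single lines gave unequal results. Relative to HCT116-CDX1, 8 genes rose in HCT116-EHF+CDX1 and MYC did not pass the test, beside LEF1, which was tested only because of the combined line, where 67.2% of all genes were called (34.9% higher). The rises were 4.43-fold for RNF43, 1.47-fold for ZNRF3, 3.22-fold for LGR4, 6.66-fold for AXIN2, 3.96-fold for NKD1, 3.39-fold for DKK1, 1.97-fold for TCF7 and 1.26-fold for TCF7L2. Those of ZNRF3 and TCF7L2 did not pass the test against a 1.5-fold change (adjusted p = 0.54 and 1). Relative to HCT116-EHF, AXIN2 rose, beside LEF1, and TCF7L2 fell (1.28-fold, adjusted p = 0.015), where 9.78% of all genes were called (5.65% higher and 4.13% lower). The fall of TCF7L2 lost its call when any 1 of the HCT116-EHF libraries, or HCT116-EHF+CDX1 replicate 2 or 3, was left out (adjusted p = 0.053 to 0.081). Without HCT116-EV replicate 3, NKD1 fell (log2 -0.31, adjusted p = 0.030) and TCF7 rose (log2 0.27, adjusted p = 0.0028) as well, giving 5 called genes with LEF1, where 36% of all genes were then called. Against a 1.5-fold change 7 of the 10 genes passed over HCT116-CDX1, LEF1 included, and 1, LEF1, over HCT116-EHF, with 41% and 2.68% of all genes called.

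The 4 lines form a layout of EHF by CDX1, so the change with EHF can be compared between cells without and with CDX1. The layout was not a clean one. Cells given both factors held a mean of 5419 CPM of CDX1 transcript, whereas CDX1 alone gave 525 CPM, and G418 had been used on the former only. In cells with CDX1, the change with EHF therefore cannot be told apart from a change in CDX1 level or in selection. The difference between the changes with EHF (the interaction) was above 0 for 7 genes at an adjusted p under 0.05, with 58.5% of all genes called (30.2% higher). LEF1 was not called (adjusted p = 0.94), and its fitted difference is not given, since it was at or under the counting limit in 3 of the lines. AXIN2 had the largest difference of the 7. Its log2 change with EHF was -2.76 without CDX1 and 2.74 with CDX1, a difference of 5.49 ± 0.62 (SE, adjusted p = 1.7e-05). ZNRF3 went from -0.71 to 0.56 (difference 1.27, adjusted p = 3.0e-05) and TCF7L2 from -0.33 to 0.34 (difference 0.67, adjusted p = 0.00032), so the direction of these 3 genes turned. NKD1 went from 0.25 to 1.98, LGR4 from 0.22 to 1.69, TCF7 from 0.12 to 0.98 and RNF43 from 1.39 to 2.15.

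Against a 1.5-fold difference 4 genes passed (AXIN2, NKD1, LGR4 and ZNRF3), with 38.2% of all genes called. DKK1 and MYC did not pass the test against no difference with all libraries. The difference for DKK1 was -0.47 (95% interval -1.39 to 0.45, adjusted p = 0.36), and it became -1.12 (adjusted p = 3.6e-09) without HCT116-EV replicate 3. That of MYC was -0.15 (95% interval -0.44 to 0.15), and it turned to a called 0.35 with quantile normalization (adjusted p = 0.039) and 0.36 on the deposited log2 RPKM values (adjusted p = 0.044). Without HCT116-EV replicate 3 the differences of the 7 genes were 5.92 for AXIN2, 1.78 for NKD1, 1.52 for LGR4, 1.15 for ZNRF3, 1.12 for TCF7, 0.85 for RNF43 and 0.70 for TCF7L2, all called, where 73.4% of all genes were called. The difference for TCF7 (0.85, adjusted p = 0.024) lost its call when any of 5 libraries was left out in turn, HCT116-EV replicate 1 or 2, HCT116-EHF replicate 1, HCT116-CDX1 replicate 1 or HCT116-EHF+CDX1 replicate 1 (adjusted p = 0.051 to 0.056).

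**Figure D4:**
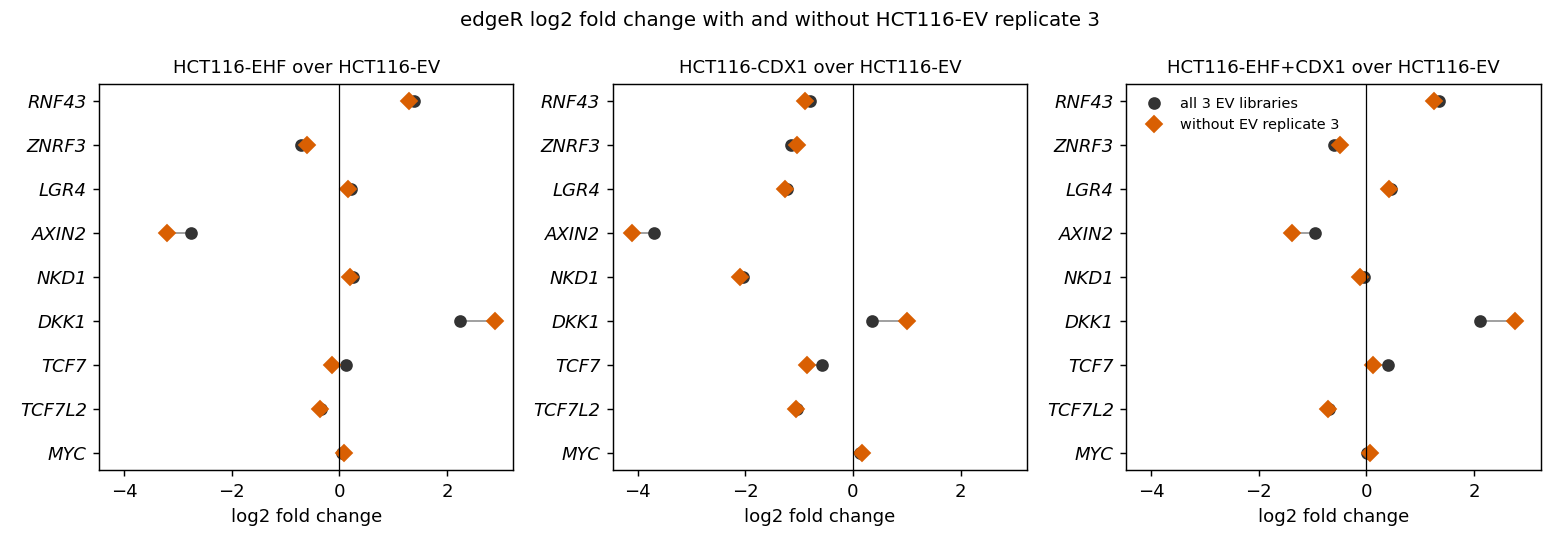
Log2 fold changes over HCT116-EV (horizontal axis) of 9 genes with all 3 HCT116-EV libraries (circles) and without replicate 3 (diamonds). AXIN2, DKK1 and TCF7 moved most, AXIN2 in HCT116-EHF+CDX1 from -0.95 to -1.38 and DKK1 in HCT116-CDX1 from 0.34 to 0.99, and the other points shifted little.

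Promoter windows of the genes were read from RefSeq (GRCh38.p14, 250 bases before to 50 after a transcript start) to set the genes that rose with EHF, and LEF1, beside their sequence. The 10 windows searched belonged to 6 of the 10 genes (RNF43, LGR4, DKK1, LEF1, TCF7 and TCF7L2), and the promoters of the other genes were not searched. Both strands were searched for CTTTGAT (TCF/LEF), TTTATNG (caudal) and GGAAGT (ETS), which do not overlap one another in these windows and which 2.62%, 9.73% and 22.8% of 35116 promoter windows of the same length held. None of the 10 windows held CTTTGAT. The windows of DKK1 at chr10:52314031-52314330 (plus strand), LEF1 at chr4:108166252-108166551 (minus strand) and RNF43 at chr17:58417485-58417784 (minus strand) held none of the 3 motifs. The window of TCF7 at chr5:134115363-134115662 (plus strand) held TTTATAG at bases 219 to 225 and the reverse complement of GGAAGT at bases 3 to 8 and 201 to 206, in capitals here. One of the 3 TCF7L2 windows also held an ETS match. The windows of LEF1 and TCF7 lay inside the gene spans given above, so the outermost start of neither gene was read. A match describes these letters only, and binding was not measured in the data used here. The 4 windows read, 5′ to 3′:
DKK1: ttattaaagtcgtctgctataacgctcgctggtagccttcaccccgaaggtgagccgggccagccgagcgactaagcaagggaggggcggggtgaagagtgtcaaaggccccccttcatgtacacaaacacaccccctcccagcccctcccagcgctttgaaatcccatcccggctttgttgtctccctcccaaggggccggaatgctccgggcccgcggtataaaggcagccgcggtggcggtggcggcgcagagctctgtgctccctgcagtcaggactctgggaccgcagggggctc
LEF1: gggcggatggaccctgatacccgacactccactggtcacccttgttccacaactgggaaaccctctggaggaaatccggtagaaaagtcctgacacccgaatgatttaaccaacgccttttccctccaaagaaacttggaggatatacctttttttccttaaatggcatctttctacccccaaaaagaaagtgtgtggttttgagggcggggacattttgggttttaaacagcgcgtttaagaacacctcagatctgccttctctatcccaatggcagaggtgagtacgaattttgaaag
RNF43: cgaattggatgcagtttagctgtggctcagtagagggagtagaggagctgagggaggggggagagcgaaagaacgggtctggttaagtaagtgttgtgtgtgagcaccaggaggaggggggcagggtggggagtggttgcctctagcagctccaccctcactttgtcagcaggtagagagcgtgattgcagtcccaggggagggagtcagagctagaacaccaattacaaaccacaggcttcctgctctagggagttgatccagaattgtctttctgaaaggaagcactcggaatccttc
TCF7: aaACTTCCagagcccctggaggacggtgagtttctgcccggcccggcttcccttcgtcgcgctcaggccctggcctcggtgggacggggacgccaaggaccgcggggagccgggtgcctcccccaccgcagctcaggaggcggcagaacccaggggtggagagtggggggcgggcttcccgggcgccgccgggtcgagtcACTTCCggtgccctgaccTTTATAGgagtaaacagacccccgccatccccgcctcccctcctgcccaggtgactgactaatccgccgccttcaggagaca

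Beyond the 10 genes, a list of 100 other pathway genes was examined, of which 82 were tested. As with LEF1, 5 of them (LGR5, TLE4, ASCL2, PROX1 and TDGF1) reached 0.5 CPM in the combined line only, at means of 5.51, 2.47, 7.32, 1.31 and 2.53 CPM there and at most 0.299 CPM elsewhere, and they are left out of the counts that follow, a choice made after their values were seen. Of the other 77, 11 rose and 27 fell in HCT116-EHF+CDX1 relative to HCT116-EV (49.4%, against 33.6% of all genes), with a median log2 change of -0.24 against -0.03 over all genes. In HCT116-EHF 13 rose and 14 fell (35.1%, against 30.1%), and in HCT116-CDX1 24 rose and 28 fell (67.5%, against 68.9%). Without HCT116-EV replicate 3 these counts became 23 and 31 in the combined line (54.9% of all genes called), 28 and 18 in HCT116-EHF (52.5%) and 30 and 28 in HCT116-CDX1 (78.8%). The counts by role below are with all libraries, and the calls over HCT116-EV stated for the genes named there were kept without that library. Among 16 tested ligands 5 rose and 4 fell in the combined line (56.2%, against 33.6% of all genes). The 5 include RSPO1, at means of 0.609 CPM in HCT116-EHF and 0.501 CPM in the combined line and 0 CPM elsewhere. RSPO1 thus entered the tests only through the lines where it was high. It is also counted among the 11 that rose in the combined line and the 13 that rose in HCT116-EHF. WNT3A, a canonical ligand, fell from 14.8 ± 2.30 CPM in HCT116-EV to 2.94 ± 0.32 CPM (log2 -2.31, adjusted p = 6.2e-07), and WNT16 rose from 8.22 ± 4.27 to 36.5 ± 3.66 CPM (log2 2.11, adjusted p = 0.00010). WLS, which carries Wnt proteins to the cell surface, fell (log2 -0.49, adjusted p = 0.045), and by less without HCT116-EV replicate 3 (log2 -0.19, adjusted p = 0.038).

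Of 16 receptors 1 rose and 6 fell in the combined line (43.8%, against 33.6% of all genes). LGR5, an R-spondin receptor and marker of intestinal stem cells, was at 0.0205 ± 0.0216 CPM with the empty vector, 0.299 ± 0.0891 CPM in the EHF line, 0.273 ± 0.0143 CPM in the CDX1 line and 5.51 ± 0.629 CPM in the combined line. Like LEF1, it was highest by far in the combined line. ROR1, a co-receptor of non-canonical Wnt signalling, and FZD2 fell in the combined line (log2 -0.88 and -0.76, adjusted p = 0.00094 and 0.0037).

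In the group of Dishevelled and destruction complex genes, 6 of 14 fell in the combined line (42.9% called, against 33.6% of all genes). AXIN1, the constitutive relative of AXIN2, lay at 68.9 ± 9.09 CPM in HCT116-EV, against 37.0 ± 0.424 CPM where EHF had been added, 83.8 ± 1.61 CPM where CDX1 had been added and 41.6 ± 2.18 CPM where both had. It thus fell in both lines with EHF (log2 -0.90 and -0.73) and rose in HCT116-CDX1 (log2 0.28, adjusted p = 0.020), where AXIN2 fell. TNKS, whose product marks axins for degradation, was likewise lower in both lines with EHF and higher in HCT116-CDX1 (log2 -0.58, -0.78 and 0.57). How the rises of AXIN1 and TNKS in HCT116-CDX1 depend on scaling was not tested. APC did not pass the test in any comparison with all libraries (log2 changes -0.16 to 0.14, adjusted p = 0.40 to 0.90), and it rose in HCT116-EHF without HCT116-EV replicate 3 (log2 0.27, adjusted p = 0.013).

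Among nuclear factors 1 of 14 rose and 6 fell in the combined line (50%, against 33.6% of all genes). TLE1, a co-repressor that binds TCF factors, was at 15.3 ± 1.64 CPM in HCT116-EV and rose with EHF only (43.2 ± 2.61 CPM), CDX1 alone (119.8 ± 15.8 CPM) and both (40.5 ± 2.32 CPM), while TLE2 fell in the combined line (log2 -0.49, adjusted p = 0.0046). Only 5 of 15 inhibitors were tested, with 2 that rose and 2 that fell in the combined line (80%, against 33.6% of all genes). NOTUM, a secreted Wnt deacylase and feedback inhibitor, fell from 40.6 ± 5.72 CPM in HCT116-EV to 6.64 ± 0.36 CPM with CDX1 only and 17.7 ± 0.598 CPM with both factors. FRZB, a secreted Wnt-binding protein, was at 0.106 ± 0.093 CPM in HCT116-EV cells and at 8.74 ± 1.2 CPM in the CDX1 line, and was also called higher in HCT116-EHF (1.24 ± 0.138 CPM) and HCT116-EHF+CDX1 (0.933 ± 0.0688 CPM).

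Of 10 further Wnt targets 2 rose and 2 fell in the combined line (40%, against 33.6% of all genes). In HCT116-CDX1 2 of them rose and 6 fell (80%, against 68.9% of all genes). SOX9, a transcription factor of intestinal stem and progenitor cells, rose in all 3 lines, from 60.4 ± 4.67 CPM to 172 ± 4.0, 155 ± 18.0 and 169 ± 9.5 CPM in the EHF, CDX1 and combined lines. BAMBI, a pseudoreceptor for TGF-β family ligands, fell in all 3, from 102 ± 2.52 CPM to 7.94 ± 1.35, 37.3 ± 6.73 and 7.44 ± 1.45 CPM.

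To describe how alike the patterns were, the log2 CPM of each gene was centred over the 12 libraries and the root mean square difference was taken between genes, with genes of the Y chromosome left out. The members closest to each other were ZNRF3 and TCF7L2 (0.21), which both fell in all 3 lines. NKD1 and LGR4 differed by 0.40, and the nearest to RNF43 was LGR4 (0.47). LEF1 had no close member (2.26 to DKK1), and AXIN2 was 1.12 from NKD1. Over all tested genes whose mean log2 CPM reached 1, the 5 nearest to AXIN2 were PIK3R3 (0.69), IPO5P1 (0.71), GRHL3 (0.71), CLN6 (0.71) and MCM4 (0.75). MCM4 shared the low value in HCT116-EV replicate 3 (569, 581 and 199 CPM), whereas CLN6 did not (61.8, 63.6 and 60.2 CPM). IPO5P1 is a pseudogene and its reads are uncertain.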

How the data were processed

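RNA-seq of 12 libraries from 4 HCT116 lines was used, and groups and replicate numbers came from the sample titles. Reads were aligned by the authors to GRCh38/hg38 with Subread, and uniquely mapped reads over RefSeq exons were counted with featureCounts (both at version 2.0.0 in the submitters' processing notes). The library kit was directional, but the strand setting of the counting is not given in the sources used here. The deposited counts per gene were not normalized. The authors deposited log2 RPKM values too, made from these counts by a CPM filter, limma voom with quantile normalization and exon lengths.

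These counts went into edgeR 4.0.16 (R 4.3.3). A gene entered the tests if 3 or more libraries reached 0.5 CPM, and the genes dropped held 0.0585% of all counts. One quasi-likelihood fit covered the 12 libraries, with line as the sole factor and TMM scaling. A call is an F test against no change with an adjusted p (Benjamini-Hochberg, 15853 genes) under 0.05, and glmTreat at 1.5-fold was run beside it. Standard errors are |log2 change| over the square root of F. With 3 libraries against 3, an exact permutation test cannot go below p = 0.10. For LEF1, folds were computed from reads, since a fitted fold depends on the prior count. Alternatives were DESeq2 1.42.0, limma 3.58.1 on voom values and on the deposited log2 RPKM values, RLE factors, library totals only, no CPM filter, only the libraries compared, a replicate block and each library left out. The fit without HCT116-EV replicate 3 for comparisons that do not use that line was added after the data were seen. The test was checked on simulated counts.

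The 10 genes, the pathway and marker lists and the motifs were chosen with earlier results of these data known. The pathway genes named were, per role, those 2 with the largest called change in HCT116-EHF+CDX1 against HCT116-EV at a mean log2 CPM of at least 1, together with CTNNB1, APC, TCF7L1 and LGR5. FRZB and NOTUM, like the rest, came from this rule. Promoter sequences and gene positions came from RefSeq tables of GRCh38.p14. No promoter window of AXIN2, ZNRF3, NKD1 or MYC was searched, so the motif results do not cover these genes. Protein sequences and other assays of the study were not used here.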

Additional observations from a re-analysis of the deposited data

Results flagged for a closer look

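For 7 of the 10 genes, the log2 change with EHF differed between cells with and without CDX1 in the edgeR interaction test, and each difference was positive. Over all genes that test called 58.5% (30.2% higher). The largest was that of AXIN2, 5.49 (adjusted p = 1.7e-05), followed by NKD1 at 1.73 (adjusted p = 1.8e-05), LGR4 at 1.47 (adjusted p = 4.3e-05) and ZNRF3 at 1.27 (adjusted p = 3.0e-05). The differences of TCF7, RNF43 and TCF7L2 were 0.85 (adjusted p = 0.024), 0.76 (adjusted p = 0.00043) and 0.67 (adjusted p = 0.00032). Against a 1.5-fold difference AXIN2, NKD1, LGR4 and ZNRF3 passed and TCF7, RNF43 and TCF7L2 did not (adjusted p = 0.15, 0.085 and 0.17). The 1.5-fold test called 38.2% of all genes. CDX1 itself was at 525 ± 35.8 CPM with CDX1 alone and 5419 ± 277 CPM with both factors (SD, n = 3), so the level of CDX1 and the presence of EHF cannot be told apart in these differences.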

How the results depend on the processing

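Over the 10 genes and 6 comparisons, 57 log2 changes were recomputed, and 49 kept their direction under every alternative run. Of the 57, 29 kept direction and call under every alternative, and 36 under all alternatives other than the 1.5-fold test. A kept call includes a gene that was not called and stayed so. The 57 include LEF1 against HCT116-EHF+CDX1, where it was tested only because of that line. The other LEF1 comparisons (HCT116-EHF and HCT116-CDX1 over HCT116-EV, and the interaction) were not recomputed, since LEF1 was at or under the counting limit in each of these 3 lines. Counts of the 10 genes include LEF1 where it was called. Against a 1.5-fold change the number of the 10 genes called fell to 3 in HCT116-EHF over HCT116-EV, 3 in HCT116-EHF+CDX1 over HCT116-EV, 1 in HCT116-EHF+CDX1 over HCT116-EHF and 4 in the interaction, because that test asks for a larger change. Over all genes it called 1321, 7075, 1654, 425, 6499 and 6055 genes in the 6 comparisons, against 4770, 10921, 5328, 1550, 10653 and 9279. For HCT116-EHF+CDX1 over HCT116-EHF the count of 3 became 7 with only the libraries of these lines, and 1 to 5 with a library left out (5 without HCT116-EV replicate 3). Over all genes that comparison gave 7837 and 802 to 5703 calls, and the cause was not tested. With only the libraries compared, HCT116-EHF and HCT116-EHF+CDX1 over HCT116-EV gave 2749 and 3100 calls, and without HCT116-EV replicate 3 they gave 8318 and 8710.

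MYC, never called in the edgeR fit of all libraries, reversed most often. With voom quantile normalization its log2 change was -0.28 in HCT116-CDX1 over HCT116-EV, 0.077 in HCT116-EHF+CDX1 over HCT116-EHF, 0.53 over HCT116-CDX1 and 0.35 in the interaction, and with the deposited log2 RPKM values -0.28, 0.078, 0.53 and 0.36, all called but those over HCT116-EHF. With library totals only it was -0.22 in HCT116-CDX1 over HCT116-EV, 0.25 in HCT116-EHF+CDX1 over HCT116-CDX1 (called, adjusted p = 0.039) and 0.17 in the interaction, a scaling that moved the median of all genes to -0.37, 0.39 and 0.37 in these comparisons. TMM factors were 0.799 to 0.845 in HCT116-CDX1 and 0.973 to 1.095 elsewhere. Leaving out a library turned MYC in HCT116-EHF (range -0.0050 to 0.091) and HCT116-EHF+CDX1 (-0.030 to 0.066), NKD1 in HCT116-EHF+CDX1 (-0.12 to 0.055) and TCF7 in HCT116-EHF (-0.14 to 0.30), all over HCT116-EV and none of them called.

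With a replicate block the number of the 10 genes called stayed at 5, 7, 6, 3, 9 and 7, and 4395, 10780, 4954, 1310, 10514 and 9093 genes were called over all. The labels share replicate numbers only. Over 18 pairs of libraries with the same number the correlation of their deviations lay between -0.065 and 0.080, and 6 of 12 libraries correlated best with their own number. Depth limits LEF1 outside HCT116-EHF+CDX1, where 0 to 2 reads per library were found.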
